A study of Mus musculus with 13 samples.

Results

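The 38 genes described here mark radial glia, the stem cells of the embryonic brain, and the astrocytes that arise from them. They were listed by name and not by a measured value, though with earlier results of these data known. The list falls into 13 early radial glia genes, 4 transcription factors of the switch to glia and 21 later astrocyte genes. Each gene was read from 1 Affymetrix probe set, a group of short probes for 1 transcript, that is annotated to that symbol alone. Where a gene had several such probe sets, the one with the highest mean signal over the 13 arrays was used. All 38 had such a probe set, among 18193 genes that did, and all 38 lay above the filter on low signals, which left 12920 genes for testing.

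Each array held the whole brain of 1 mouse embryo, taken at embryonic day 18.5. There were 6 wild-type embryos and 7 Meg3 knock-out embryos, and Meg3 is a long non-coding RNA made from an imprinted locus. Which stretch of Meg3 was removed, and on which parental copy, is not given in the sources used here. The leading number of each embryo's label gave 5 litters: 148 with 1 knock-out, 219 with 2 wild-type and 1 knock-out, 238 with 1 wild-type and 2 knock-outs, 250 with 2 of each, and 262 with 1 of each.

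Radial glia line the ventricles of the developing brain and send a long process to its surface. They first make neurons and then, late in gestation, switch to making glia, a step in which SOX9 and the nuclear factor I proteins take part. Astrocytes that arise from them go on to take up glutamate, buffer water and ions, couple through gap junctions and secrete lipoproteins and matrix proteins. Early and later genes overlap, since young astrocytes keep many radial glia transcripts, and whole brain cannot separate fewer cells of a type from less RNA per cell.

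Meg3 signal ran from 3109 to 6251 in wild-type brains and from 264 to 589 in knock-out brains. Its log2 change was -3.64 ± 0.20 (SE), with an adjusted p of 1.30e-07 by limma, so every array matched its label. Correlations of log2 signal between arrays lay between 0.893 and 0.990. The ratio of the 3′ to the 5′ probe set of Actb, a sign of RNA integrity, was 2.92 in wild-type 2 and 1.81 in knock-out 1, against 1.32 to 1.495 in the other 11. Wild-type 2 or knock-out 1 gave the lowest signal of 14 of the 38 genes, and the share over all genes was not counted. Of the 21 later genes, wild-type 2 was lowest for 7, knock-out 1 for 4 and knock-out 7, at a ratio of 1.32, for 5. Of the 13 early genes, these 3 brains were lowest for 2, 1 and 2, and wild-type 1, at a ratio of 1.34, for 4. No member passed between genotypes with this ratio added to the model, where 21 changes were above 0 and 17 below, or without these 2 brains, where 17 were above 0 and 21 below.

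None of the 38 genes passed the test between genotypes (limma, Benjamini-Hochberg adjusted p = 1.00 for each). Over all genes tested, 0.0232% passed as lower in the knock-out and 0% as higher. At an unadjusted p under 0.05, only Id4 of the 38 was higher, which is 2.63% of them against 1.71% of all genes, and none was lower against 0.255%. No member had groups that did not overlap, a pattern found in 0.0774% of all genes. Log2 changes, here always knock-out minus wild-type of log2(signal + 16), were above 0 for 23 members and below 0 for 15. That is 60.5% above 0, beside 65.4% of all genes tested, with a median of 0.03 beside 0.04. This split depends on the scaling of the arrays: 17 were above 0 and 21 below after quantile normalization, 10 and 28 after centring each array on its median, and 15 and 23 after trimmed mean scaling.

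The precision bounds what could have gone unseen on the probe set used for each gene, in signal of the whole brain. It does not bound a change confined to a region or to part of the cells. Some other probe sets above the filter were less precise, as for Nfib at 0.57 ± 0.41 (SE) and Tnc at 0.55 ± 0.34. The intervals that follow do not cover them. The 95% interval of the change lay within 2-fold in either direction for 38 of the 38 genes, and within 1.5-fold for 31, of which 11 were early genes, 4 were transcription factors and 16 were later genes. The farthest bounds were 0.551-fold for Mt3 and 1.81-fold for Aqp4. Id4 was the 1 gene whose change exceeded its own SD within genotypes.

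**Figure D1:**
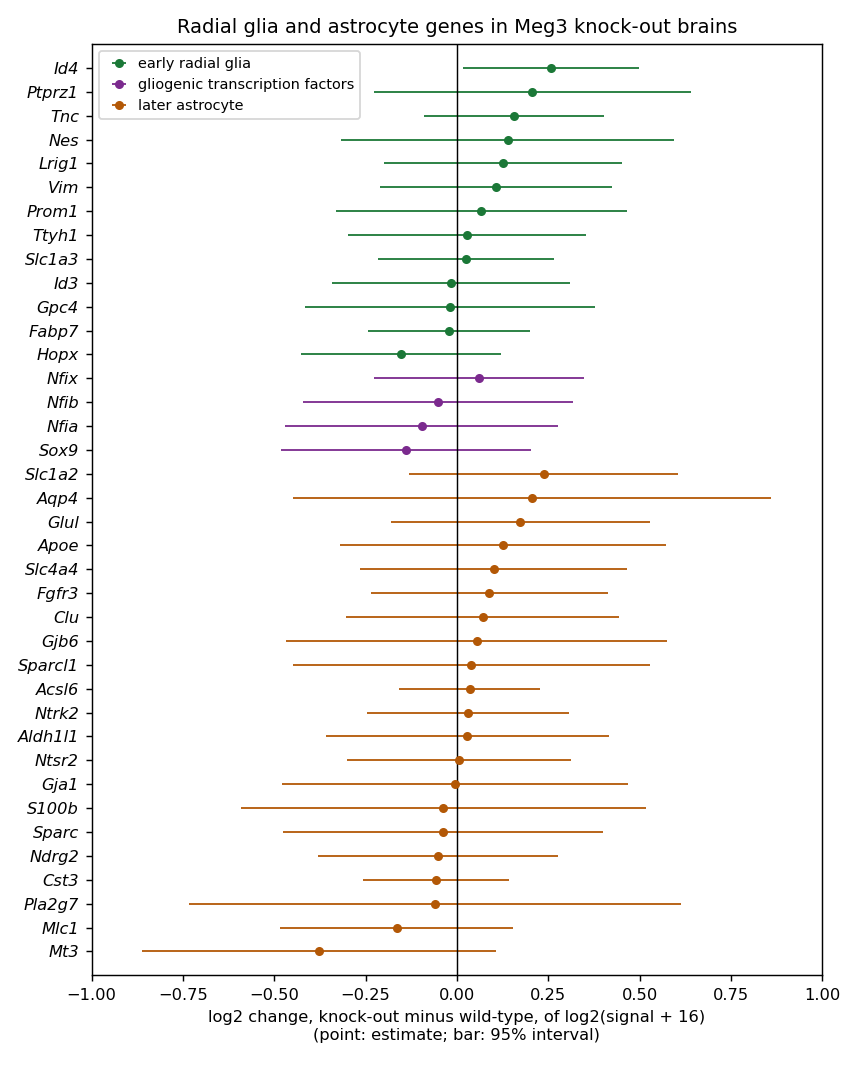
Log2 change of each of the 38 genes in Meg3 knock-out against wild-type brains (x axis, log2(signal + 16)), grouped by role on the y axis, with points for estimates and bars for 95% intervals. Of the 38 bars, only that of Id4 leaves out 0, and changes run from -0.38 for Mt3 to 0.26 for Id4.

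Among the 13 early radial glia genes, 9 had changes above 0 and 4 below, with a mean of 0.07, or -0.033 where each array was centred on its median, and none passed the test. That centring also moved the median of all genes from 0.04 to -0.059. Id4 encodes an inhibitor of basic helix-loop-helix factors that holds progenitors back from differentiation. Its signal in wild-type brains was 5062 at the lowest, 5937 at the median and 6546 at the highest. In knock-out brains it was 5112, 7363 and 7848. Of the 7 knock-out brains, 6 lay above every wild-type brain, and knock-out 2, from litter 219, lay below 5 of the 6. The log2 change was 0.26 ± 0.11 (SE), with a 95% interval of 0.02 to 0.50 and an unadjusted p of 0.0381, and limma's adjusted p was 1.00. Within litters 219, 238, 250 and 262 the difference was -0.17, 0.40, 0.25 and 0.26. The 3 Id4 probe sets above the filter gave changes from 0.03 to 0.29, so the size depends on the probe set. Id3, a relative of Id4 that responds to bone morphogenetic proteins, had a change of -0.02 ± 0.15.

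The intermediate filament genes of radial glia differed little. Nes, which encodes nestin, had a wild-type signal of 242, 593 and 737 at the lowest, median and highest, and a knock-out signal of 434, 596 and 812. The groups overlapped, and the lowest value came from wild-type 2, far below the next wild-type brain at 533. Its change was 0.14 ± 0.21, and Vim, which encodes vimentin, had a change of 0.11 ± 0.15. Without wild-type 2 the change of Nes turned below 0.

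Genes for the surface and matrix of radial glia had changes on both sides of 0. Tnc encodes tenascin-C, a matrix glycoprotein of the ventricular zone. It had a wild-type signal of 1907, 2409 and 2728 and a knock-out signal of 2169, 2672 and 2924, again lowest, median and highest. Of the knock-out brains, 3 lay above every wild-type brain, and the change was 0.16 ± 0.12 (unadjusted p = 0.199 by limma's test over all genes), with 0.55 on the second Tnc probe set. Ptprz1 encodes a receptor phosphatase that binds tenascins, and its change of 0.21 ± 0.20 leaned on wild-type 1, at 1766 against 3425 or more in every other brain. Without wild-type 1 its change turned below 0. Prom1, which encodes the apical membrane protein prominin-1, was also lowest in wild-type 1, at 343, and had a change of 0.07 ± 0.19. Gpc4, a heparan sulphate proteoglycan gene, and Lrig1, which encodes a brake on growth factor receptors, had changes of -0.02 ± 0.19 and 0.13 ± 0.15.

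The remaining early genes had changes of -0.15 to 0.03. Fabp7 encodes the fatty acid binding protein of radial glia and was measured closely, with a wild-type signal of 16418 to 23298, a knock-out signal of 16853 to 21724 and a change of -0.02 ± 0.10. Slc1a3 encodes the glutamate transporter that radial glia carry before Slc1a2 takes over, and had a change of 0.02 ± 0.11. Ttyh1, which encodes a chloride channel family protein, had a change of 0.03 ± 0.15. Hopx, a homeodomain protein gene of outer radial glia and later astrocytes, had the lowest change of the early genes, at -0.15 ± 0.13, with 3 knock-out brains below every wild-type brain.

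Of the 4 transcription factors, 1 had a change above 0 and 3 below, with a mean of -0.06. That mean was above 0 in other readings, at 0.044 with the mean of each gene's probe sets, where Nfia and Nfib lay above 0, and at 0.025 without litter 238. SOX9 starts the glial programme. Sox9 signal was 315, 443 and 514 in wild-type brains and 235, 390 and 482 in knock-out brains. Knock-out 7 lay below every wild-type brain and the other 6 knock-out brains lay within the wild-type range, for a change of -0.14 ± 0.16. Nfia, Nfib and Nfix encode nuclear factor I proteins that drive astrocyte genes, and their changes were -0.10 ± 0.18, -0.05 ± 0.17 and 0.06 ± 0.14. Knock-out 4 was lowest for both Nfia, at 1905, and Nfib, at 2600, while knock-out 2 was highest for both, at 4233 and 5921. The knock-out group thus spanned the wild-type range of both genes on either side. For Nfib the 7 probe sets above the filter gave changes from -0.08 to 0.57.

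Among the 21 later astrocyte genes, 13 had changes above 0 and 8 below, with a mean of 0.02, and none passed the test. That mean lay on the other side of 0 under other scalings, at -0.034 after quantile normalization, -0.083 after median centring and -0.036 after trimmed mean scaling. Slc1a2 encodes the main glutamate transporter of mature astrocytes. It had a wild-type signal of 1044, 1553 and 1848 and a knock-out signal of 1292, 1892 and 2086. Of the knock-out brains, 4 lay above every wild-type brain, and these were the knock-outs of litters 238 and 250. The change was 0.24 ± 0.17 (unadjusted p = 0.191 by limma's test over all genes), and within litters 219, 238, 250 and 262 it was 0.43, 0.12, 0.21 and -0.09. Glul, which encodes the glutamine synthetase that disposes of the glutamate taken up, had a change of 0.17 ± 0.17.

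Mt3 encodes a metal-binding metallothionein of brain and had the lowest change of the 38. Its signal was 2250, 4531 and 5208 in wild-type brains and 2148, 2958 and 5187 in knock-out brains. The groups overlapped over almost their whole range, since wild-type 2 lay at 2250 and knock-out 6 at 5187. The change was -0.38 ± 0.23 (unadjusted p = 0.119 by limma's test over all genes). Within litters 219, 238, 250 and 262 it was -0.21, -0.84, 0.10 and -0.71. Mt3 was read by 1 probe set, so no second reading was possible.

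Of the genes for water, ion and end-foot proteins, only Aqp4 spread widely within each group. The SD within genotypes, on the scale of the changes, was 0.629 for Aqp4, 0.275 for Mlc1 and 0.327 for Slc4a4. The median SD over all genes tested was 0.274. Aqp4, the water channel gene of astrocyte end-feet, had a wild-type signal of 240, 637 and 1006 and a knock-out signal of 419, 630 and 1112. Its medians were close, and its change of 0.21 ± 0.31 (95% interval -0.45 to 0.86) is the least bounded above of the 38. Mlc1, which encodes a membrane protein of the same end-feet, had a change of -0.17 ± 0.15, with medians of 901 in wild-type and 744 in knock-out brains. Slc4a4, a sodium bicarbonate cotransporter gene, had a change of 0.10 ± 0.17.

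Gja1 and Gjb6 encode connexin 43 and connexin 30, the gap junction proteins of astrocytes. Gja1 signal was 4014, 6598 and 9234 in wild-type brains and 3285, 6870 and 7955 in knock-out brains, for a change of -0.01 ± 0.22. Gjb6 signal was 222, 459 and 585 against 252, 439 and 762, for a change of 0.05 ± 0.24. Both genes had almost the same median in either genotype, and the lowest value of each group of both came from litter 262.

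Genes for secreted proteins made up the next group. Apoe encodes the main brain apolipoprotein and Clu the lipoprotein chaperone clusterin, with changes of 0.13 ± 0.21 and 0.07 ± 0.18. Sparcl1 and Sparc encode related matrix proteins with opposed effects on synapse formation, and had changes of 0.04 ± 0.23 and -0.04 ± 0.21. Sparc signal was 3063, 5747 and 6921 in wild-type brains and 2957, 4975 and 6383 in knock-out brains. Cst3, which encodes the protease inhibitor cystatin C, had one of the narrowest intervals, with a change of -0.06 ± 0.09. Pla2g7, the gene of a secreted phospholipase, had one of the widest, with a change of -0.06 ± 0.32.

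Receptor and enzyme genes of astrocytes completed the list. Fgfr3, Ntrk2 and Ntsr2 encode receptors for fibroblast growth factors, for brain-derived neurotrophic factor and for neurotensin, and had changes of 0.09 ± 0.15, 0.03 ± 0.13 and 0.01 ± 0.14. Ntrk2 was the 1 member whose difference had the same sign in all 4 litters with both genotypes, at 0.23, 0.03, 0.11 and 0.04 for litters 219, 238, 250 and 262. That is 2.63% of the members, against 11.3% of all genes tested. Aldh1l1, which encodes a folate enzyme used as a pan-astrocyte marker, had a change of 0.03 ± 0.18, and Acsl6, a fatty acid activating enzyme gene, 0.04 ± 0.09. S100b, the gene of a calcium-binding protein, had a change of -0.04 ± 0.26 and its lowest signal, 51.8, in knock-out 7. Ndrg2, an astrocyte gene of the alpha/beta hydrolase fold, had a change of -0.05 ± 0.15.

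**Figure D2:**
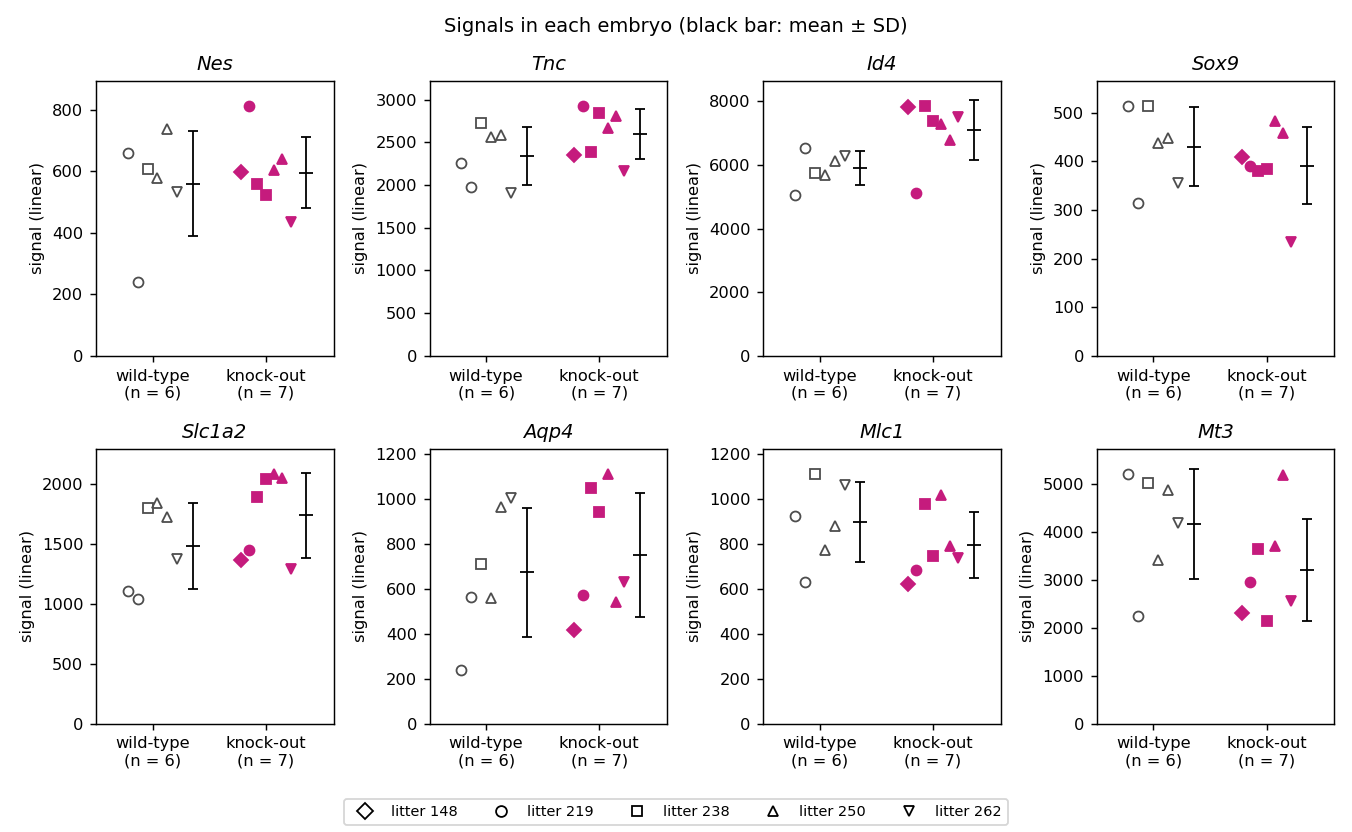
Signal (y axis, linear) of 8 genes in each of the 6 wild-type and 7 knock-out brains (x axis), with marker shapes for litters and black bars for the mean ± SD. The genotypes overlap for all 8, and for Id4 6 of the 7 knock-out brains lie above every wild-type brain.

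Early and later genes were then set against each other within each brain, as the mean log2 signal of the 21 later genes minus that of the 13 early genes. This difference has no meaning as a level, since probe sets differ in brightness, but it can be compared between brains. It was -0.18 ± 0.10 (SD, n = 6) in wild-type brains, from -0.32 to -0.03, and -0.23 ± 0.16 (SD, n = 7) in knock-out brains, from -0.44 to -0.01. The genotypes differed by -0.050, less than the SD of either group, and the ranges overlapped over the whole wild-type range. Within litters 219, 238, 250 and 262 the difference between genotypes was -0.10, -0.09, 0.08 and -0.21, so its sign was not shared. It was -0.058 after quantile normalization and -0.050 after median centring or trimmed mean scaling.

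**Figure D3:**
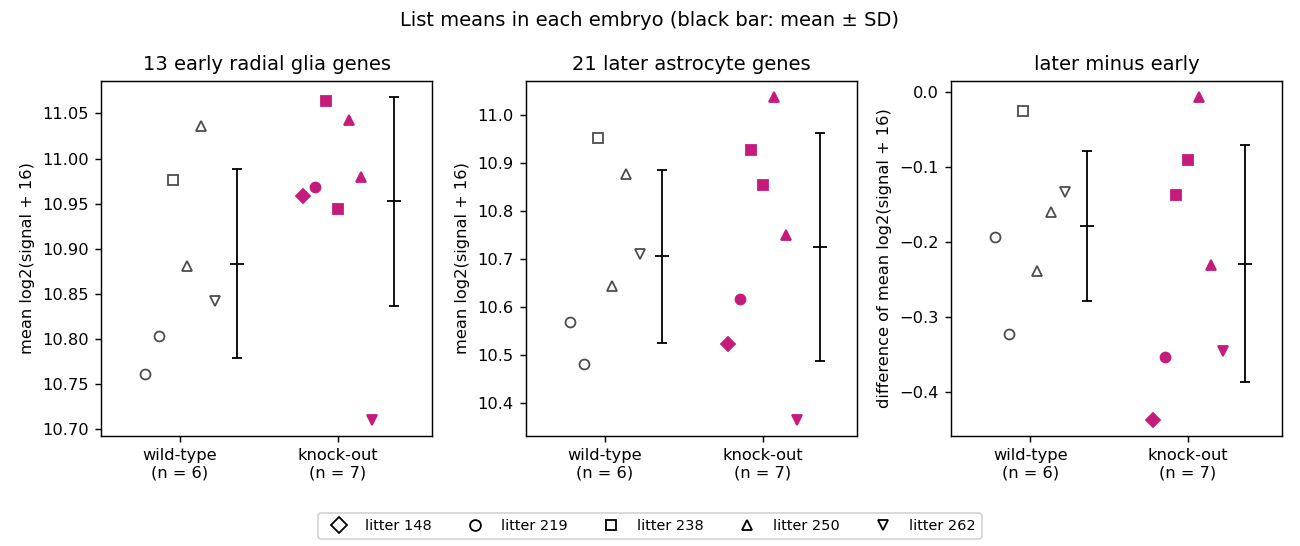
Mean log2(signal + 16) (y axis) of the 13 early genes, of the 21 later genes, and the later minus the early mean, in each brain by genotype (x axis), with marker shapes for litters and black bars for the mean ± SD. Later minus early runs from -0.32 to -0.03 in wild-type and from -0.44 to -0.01 in knock-out brains.

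The litters were also read one by one. Knock-out 5, of litter 250, had 21 of the 21 later genes above their own median over the arrays, and knock-out 7, of litter 262, had 2 of the 21. Over all genes tested the shares were 72.5% in knock-out 5 and 27.8% in knock-out 7, the highest and the lowest of the 13 arrays. The counts did not follow these shares in every brain. Wild-type 3 had 17 of the 21 later genes above their median at a share of 44.6%, and knock-out 2 had 5 of the 21 at 56.9%. In litter 250 the knock-out mean was above the wild-type mean for 20 of the 21 later genes, against 60.5% of all genes, and in litter 262 for 3 of the 21, against 44.4%. The mean difference of the later genes was 0.09, -0.06, 0.13 and -0.34 in litters 219, 238, 250 and 262, beside medians over all genes of 0.16, -0.04, 0.03 and -0.03. For the early genes it was 0.19, 0.03, 0.05 and -0.13. The fit of litter by genotype used the 12 arrays of the 4 litters with both genotypes. With so few arrays in each litter, that fit could miss real differences. A litter by genotype term passed for none of the members (limma, smallest adjusted p = 1.00), for 0% of all genes tested, and at an unadjusted p under 0.05 for none of the members against 1.42% of all genes.

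**Figure D4:**
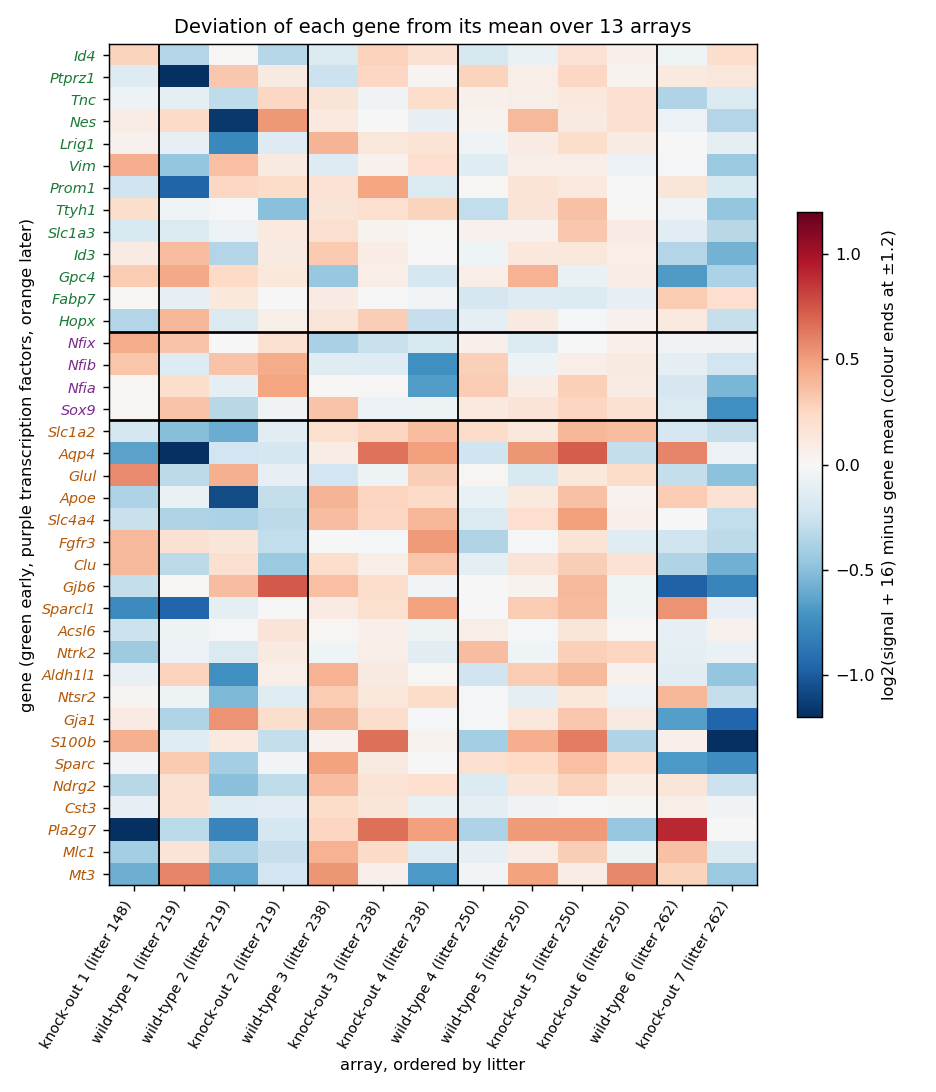
Deviation of log2(signal + 16) from the gene's mean over the 13 arrays (colour, from -1.2 in blue to 1.2 in red) for each of the 38 genes (rows, grouped by role) and each brain (columns, ordered by litter). Knock-out 5 has 21 of the 21 later genes above their medians and knock-out 7 has 2 of the 21, and Gja1, Gjb6 and Sparc are blue in both brains of litter 262.

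Litter terms took up a median of 57.8% of the variation within genotypes of the 38 genes, against 44.2% for all genes tested. These shares were not corrected for the number of litter terms, which take up a part even without a litter effect. They can be read beside each other, but not as the part due to litter. Between litters, with genotype in the model, none of the members passed (limma, smallest adjusted p = 0.126, for Slc1a2), while 0.0387% of all genes did. At an unadjusted p under 0.05, 11 of the 38 differed between litters, or 28.9% against 15% of all genes. They were 9 of the 21 later genes, namely Slc1a2, Gjb6, Sparc, Gja1, Slc4a4, Pla2g7, Clu, Apoe and Ntrk2, with Gpc4 of the early genes and Nfix of the transcription factors.

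The count between litters depended on litter 219. Without its 3 brains, 6 members passed between litters by limma, with adjusted p-values of 0.0201 for Sparc, 0.0247 for Gja1, 0.0260 for Gjb6, 0.0323 for Slc1a2, 0.0468 for Id3 and 0.0490 for Nfix. That is 15.8% of the members, against 10.5% of all genes tested. Leaving out wild-type 1 of that litter alone let 4 members pass, Gjb6, Gja1, Slc1a2 and Sparc, or 10.5% against 4.22% of all genes. After quantile normalization Gjb6 was the 1 member that passed, with an adjusted p of 0.0449, against 0.402% of all genes.

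The order of the litters was not the same for each later gene. The mean Slc1a2 signal of litters 238 and 250 was 1914 and 1928, and that of litters 148, 219 and 262 was 1369, 1200 and 1334. Every brain of litters 238 and 250 lay above every brain of the other 3 litters, in both genotypes. Slc4a4 was likewise highest in litters 238 and 250, at 1135 and 1004, against 696 to 809 elsewhere. Pla2g7 and Apoe, unlike Slc1a2, had high means in litter 262, at 1141 and 6870, and both were lowest in litters 148 and 219. For Pla2g7 that mean joins unlike brains, wild-type 6 at 1491 and knock-out 7 at 791. Litter 148 is knock-out 1 alone, and litter 219 holds wild-type 2, the brains with Actb ratios of 1.81 and 2.92. Apoe was 2746 in wild-type 2, and 5493 and 4772 in its litter mates. Pla2g7 was 448 in wild-type 2, and 624 and 679 in its litter mates. The part of RNA integrity in these litter means was not tested.

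The connexin genes and Sparc had low signal in litter 262. Mean Gja1 signal there was 3649, against 6801 to 7390 in the other 4 litters. Gjb6 was 237 against 366 to 601, and Sparc was 3010 against 4852 to 5903. For these 3 genes and for Id3, both brains of litter 262, 1 wild-type and 1 knock-out, lay below all other 11 brains. These 4 make 10.5% of the members, against 9.72% of all genes tested, so the share is near the background. Fabp7 alone of the members lay above the other 11 in both, against 2.89% of all genes.

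The promoters of these 3 later genes, but not that of Id3, are printed so that genes low together in litter 262 can be compared. The share of such members is near the background. Each is the RefSeq sequence of build GRCm38.p6 from 250 bases before to 50 bases after the start of transcription, 5′ to 3′ on the gene's strand. They lie at chr10:56377050-56377349 on the plus strand for Gja1, at chr14:57133562-57133861 on the minus strand for Gjb6 and at chr11:55420031-55420330 on the minus strand for Sparc. Capitals mark the E-box, CANNTG, the motif of the basic helix-loop-helix factors that ID proteins inhibit, found on either strand since it reads alike on both.
Gja1: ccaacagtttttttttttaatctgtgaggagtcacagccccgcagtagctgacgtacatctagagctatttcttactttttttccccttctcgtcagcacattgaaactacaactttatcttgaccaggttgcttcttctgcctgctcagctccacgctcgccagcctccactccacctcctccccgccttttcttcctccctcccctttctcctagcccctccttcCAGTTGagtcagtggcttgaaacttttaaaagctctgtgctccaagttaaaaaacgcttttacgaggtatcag
Gjb6: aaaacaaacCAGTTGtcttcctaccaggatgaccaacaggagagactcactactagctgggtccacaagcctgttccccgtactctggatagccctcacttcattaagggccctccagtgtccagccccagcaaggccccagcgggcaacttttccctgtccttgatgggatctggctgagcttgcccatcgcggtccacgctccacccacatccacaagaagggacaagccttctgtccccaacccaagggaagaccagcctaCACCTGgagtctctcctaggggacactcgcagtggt
Sparc: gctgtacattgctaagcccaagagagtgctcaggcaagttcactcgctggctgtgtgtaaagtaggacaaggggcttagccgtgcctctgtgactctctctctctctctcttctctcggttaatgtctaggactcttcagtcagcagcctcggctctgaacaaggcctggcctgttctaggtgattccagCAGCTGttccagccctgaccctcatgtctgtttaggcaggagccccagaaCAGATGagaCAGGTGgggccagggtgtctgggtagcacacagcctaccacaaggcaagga
The Gja1 window held 1 E-box, that of Gjb6 2 and that of Sparc 3. Such matches are common: of the 33 members with a RefSeq promoter, 25 held an E-box, or 75.8%, against 75.0% of 27025 genes. The short site of the nuclear factor I proteins, TTGGCA on either strand, was in 3 of the 33, or 9.09%, against 16.1%. The metal response element, TGCGCNC on either strand, was in 10 of the 33, or 30.3%, against 17.04%, with no match in any of the 3 printed windows. The window of Id3, the early gene also low in litter 262, differed from these 3. It held 0 E-boxes and 2 matches to the metal response element. Aqp4, Sox9, Clu, Sparcl1 and Nfib had no matched promoter.

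The summed signals of some other lists also stood apart in litter 262. They were lists of markers of other cells and wider lists of radial glia and gliogenic signalling genes. All of these sums were lower there but that of the neuron list, which was higher. Bright genes weigh most in a sum. Beside the counts that follow, 9.72% of all genes tested were below all others in both brains. The summed signal of 10 meninges and fibroblast markers was 7243 in wild-type 6 and 5833 in knock-out 7, against 11249 to 20660 in the other 11 brains, and 9 of the 10 were below all others in both. The sum of 9 endothelial markers was 3373 and 3375, against 3919 to 5460, with 3 of the 9 below. The sum of 9 microglia markers was 2934 and 2971, against 3576 to 5378, with 5 of the 9 below. The sum of 20 other radial glia genes was 23512 and 21407, against 24303 to 32391, with 5 of the 20 below. The sum of the gliogenic signalling genes was 27418 and 28195, against 29872 to 36646, with 2 of the 21 below, a share near that of all genes. The sum of 10 neuron genes went the other way, at 114879 and 114477 against 88048 to 103753. How many of these 10 lay above all others in both brains was not counted. Other lists did not stand apart. The sum of 25 other astrocyte genes was 57174.5 and 48585.7, against 47307.6 to 62226, with 1 of the 25 below. The sums of the intermediate progenitor, oligodendrocyte lineage, choroid plexus and ependyma lists also lay within the range of the other 11 brains. Sparc and Gja1 are also made by meningeal and vessel cells. The part of the cells these lists mark in the low signal of Gja1, Gjb6 and Sparc was not tested. Between genotypes the meningeal sums overlapped, from 7243 to 20660 in wild-type and from 5833 to 17998 in knock-out brains.

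**Figure D5:**
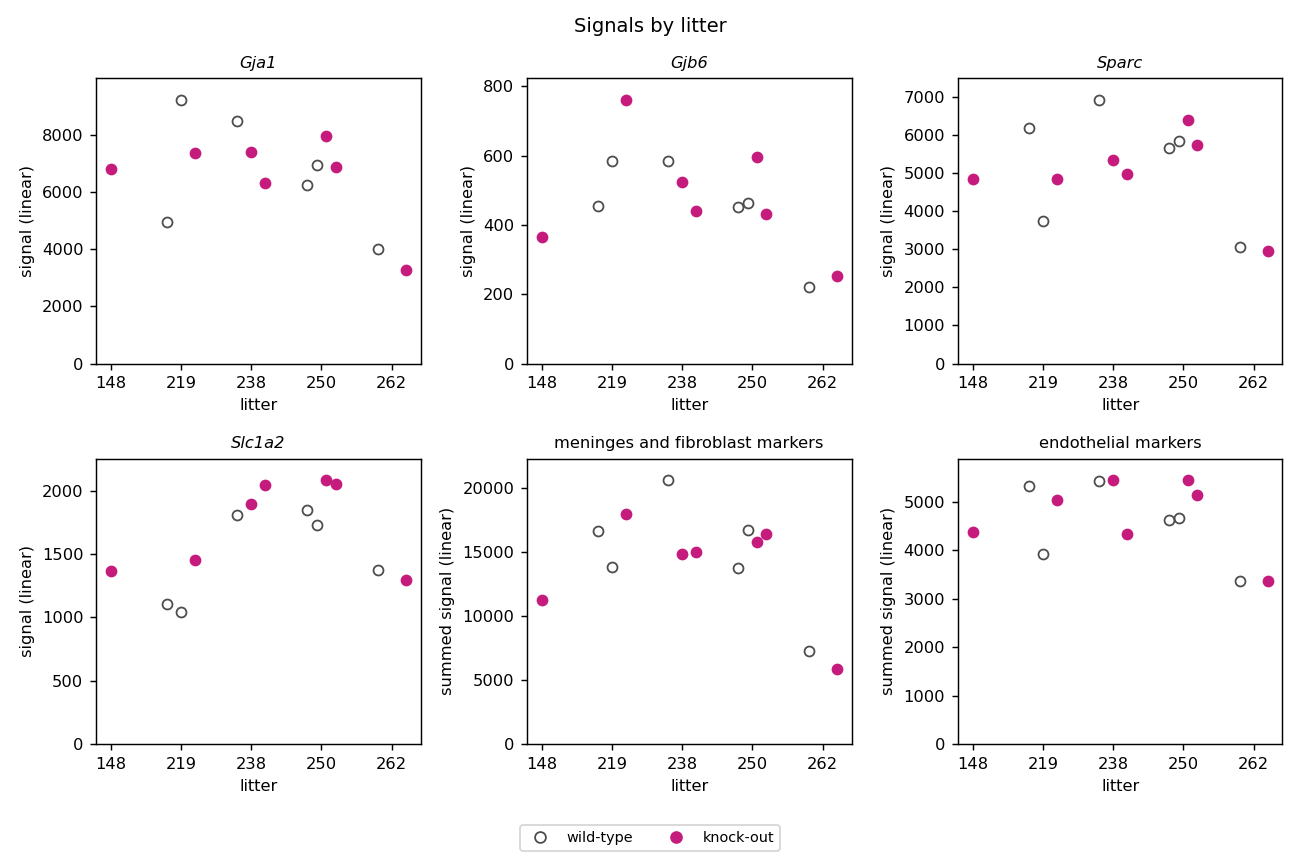
Signal of Gja1, Gjb6, Sparc and Slc1a2, and summed signal of the meninges and fibroblast markers and of the endothelial markers (y axes, linear), in each brain by litter (x axis), with open points for wild-type and filled points for knock-out. Both brains of litter 262 are lowest for Gja1, Gjb6, Sparc and both marker sums, and Slc1a2 is highest in litters 238 and 250.

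Other genes of the same lineage and its signals were read from wider lists. Of 20 other radial glia genes tested, 13 had changes above 0 and 7 below, and none passed by limma or had an unadjusted p under 0.05. Pdpn, which encodes the membrane glycoprotein podoplanin, and Msi1, an RNA-binding protein gene of progenitors, had changes of -0.21 ± 0.16 and -0.19 ± 0.18. Of 25 other astrocyte genes, 7 had changes above 0 and 18 below, with a median of -0.06 beside 0.04 over all genes, and again none had an unadjusted p under 0.05. Dtna, which encodes a dystrophin-associated protein of end-feet, and Fam107a, an actin-binding protein gene, had changes of 0.28 ± 0.16 and -0.33 ± 0.21. Of 21 genes of gliogenic signalling, 17 had changes above 0 and 4 below, with a median of 0.10, and none passed. Nrg1, which encodes the ligand neuregulin-1, and Ctf1, which encodes the gliogenic cytokine cardiotrophin-1, had changes of 0.41 ± 0.22 and -0.16 ± 0.11.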

How the data were processed

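Total RNA of whole brains was labelled with biotin and hybridised to Affymetrix arrays, per the labels' protocols. The deposited values are array intensity signals, taken as linear from their range; the software, background correction and scaling behind them are not given in the sources used here. Of 45101 probe sets, 64 were controls, 34945 had 1 symbol in the platform annotation, 932 had several and 9160 were unnamed; only those with 1 symbol were used.

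Here 16 was added to each signal before log2, and genes whose signal was not above the 40th percentile, 56.9, were left out. Fits used limma 3.58.1 in R 4.3.3, with lmFit and eBayes over 12920 genes and Benjamini-Hochberg adjustment at 0.05. The fits of genotype and of litter used all 13 arrays, and SE and intervals come from the genotype fit. The fit of litter by genotype used the 12 arrays of the 4 litters with both genotypes. Litter was tested with genotype in the model. Tables and figures used Python 3.11.15, pandas 2.3.3 and matplotlib 3.10.9. The fits were tested on simulated data. The number of arrays limits the precision.

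The members and lists were chosen with earlier results of these data known. Genes outside the 38 are named by a rule: the 2 smallest unadjusted p-values of each list. Embryos are separate animals, and litter comes from the leading number of each label. Embryos with equal replicate numbers were not treated as pairs. The correlations of their deviations were 0.40, 0.08, 0.12, -0.20, 0.13 and -0.26. Between wild-type and knock-out litter mates the correlations ran from -0.11 to 0.57. This measure thus cannot tell whether the replicate numbers pair embryos. Alternatives were other pseudocounts, filters, scalings, probe set rules and covariates, blocks for litter or replicate number, and leaving out each array or litter.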

Additional observations from a re-analysis of the deposited data

Results flagged for a closer look

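In 10 of 76 groups of a gene's signals in 1 genotype, the highest or lowest brain stood apart from the others by Dixon's criterion. Chance meets this criterion in about 5% of independent groups. These groups share the same 13 arrays, so they are not independent, and the share over all genes was not counted. No excess over chance can be read from the count. Knock-out 7 was the low brain for Id3 at 845 (next 1262), Sox9 at 235 (next 381), Gja1 at 3285 (next 6311) and Sparc at 2957 (next 4834). Its litter mate wild-type 6 was the low brain for Gjb6 at 222 (next 452). Wild-type 2, with the highest Actb ratio, was low for Nes at 242 (next 533) and Apoe at 2746 (next 5493). Wild-type 1 was low for Prom1 at 343 (next 688), and knock-out 2, also of litter 219, for Id4 at 5112 (next 6772). The 1 high brain was wild-type 4 for Ntrk2, at 4605 (next 3435).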

How the results depend on the processing

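No member passed between genotypes under any of 30 alternatives, and the smallest adjusted p of a member was 0.963 (limma). Vim, Tnc, Hopx, Id4, Sox9, Slc1a2, Glul, Mlc1, Cst3 and Mt3 kept 1 sign in all of them. These alternatives did not read each probe set alone. Another probe set above the filter gave the opposite sign for Vim, at -0.10, for Glul, at -0.05, and for Hopx, at 0.01. Of the 26 members with 2 or more probe sets above the filter, 15 had all of them on 1 side of 0. Leaving out each array in turn gave a mean log2 change of 0.04 to 0.11 for the early genes, -0.11 to 0.01 for the transcription factors, -0.03 to 0.08 for the later genes, and -0.09 to -0.02 for later minus early. It gave 3 to 3 genes lower, 0 to 1 higher and 3 to 4 in all between genotypes, an all-gene median of 0.03 to 0.06, and 0 to 545 genes and 0 to 4 members between litters. The count of 5 genes between litters became 3 with a pseudocount of 64, 2 with a filter at the 60th percentile, 52 (with 1 member) after quantile normalization, 11 after median centring, 13 with the mean of a gene's probe sets, 37 with the Actb ratio added to the model and 74 when wild-type 2 and knock-out 1 were both left out. It became 1358 (with 6 members) without litter 219, 0 without litter 250, 0 without litter 262 and 8 without litter 148. Without litter 238, 1 gene was higher in the knock-out. Median centring moved the median change of all genes from 0.04 to -0.059. With the replicate number as a block, the means were 0.11 for early, 0.00 for the transcription factors and 0.08 for later genes, with 3 genes called; with litter as a block they were 0.05, -0.04 and -0.01, also with 3. Neither block changed a member's call; knock-out 7 is alone in its number and knock-out 1 in its litter, so each drops out of the respective fit. The causes were not tested. The background of low signals is not known.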

Other observations

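Lists of other cell types in the same brains held no gene past the threshold between genotypes (limma), and the 2 genes with the smallest p of each list are named. Of 8 choroid plexus genes tested, 7 had log2 changes below 0, with a median of -0.46. Clic6, an intracellular chloride channel gene, had a change of -0.84 ± 0.42 (SE) and Sostdc1, a secreted inhibitor gene, -0.61 ± 0.31. The summed signal of the choroid plexus list ran from 23231 to 39167 in wild-type brains and from 9136, in knock-out 4, to 32261 in knock-out brains. Of 4 ependyma genes, 3 were below 0, and Dynlrb2 and Rsph1, both genes of cilia, had changes of -0.42 ± 0.20 and -0.29 ± 0.31. Of 9 microglia genes, 5 were above 0. Among them Cx3cr1, the fractalkine receptor gene, had a change of 0.31 ± 0.11 (limma, unadjusted p = 0.0135, adjusted p = 1.00) and Aif1 0.15 ± 0.17.

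Of 10 neuron genes, 8 were above 0, but the gene with the smallest p, Syn1, a synaptic vesicle protein gene, had a change of -0.24 ± 0.14, and Dcx, a microtubule protein gene of young neurons, 0.16 ± 0.10. Of 5 intermediate progenitor genes, 2 were above 0, with Btg2 at 0.22 ± 0.12 and Eomes at -0.33 ± 0.23. Of 7 oligodendrocyte lineage genes, 2 were above 0, with Sox10 at -0.26 ± 0.18 and the myelin gene Mag at -0.18 ± 0.16. Of 9 endothelial genes, 5 were above 0, with Pecam1 at 0.24 ± 0.13 and Cdh5 at -0.36 ± 0.23. Of 10 meninges and fibroblast genes, 4 were above 0, with the proteoglycan genes Bgn at -0.33 ± 0.29 and Dcn at 0.22 ± 0.26. The 2 red cell genes tested were Hba-a2, at 0.50 ± 0.19 (limma, unadjusted p = 0.0190, adjusted p = 1.00), and Alas2, at -0.14 ± 0.48. Mean Hba-a2 signal was low, at 53.8 in wild-type and 81.3 in knock-out brains, near the filter of 56.9. The globin genes have near-identical copies.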
